A study of Mus musculus with 18 samples.

Results

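The genes described here are 10 of the 23420 gene symbols counted in these libraries, and all encode parts of the actin, myosin and spectrin skeleton. They are the nonmuscle myosin II heavy chain genes Myh9, Myh10 and Myh14, Limch1, Sptan1, Dst, Syne2, Myo5a, Dbn1 and Ppp1r9a. They were chosen by a high signal in the tumor IP libraries, read as IP over input by library number. The tumor values that chose them are given below as a description with no test, and no threshold was stated for the choice. Their gain over control was probably in view as well, so low control values are no independent support.

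RNA was sequenced from the brain (cortex, per the design text) of Camk2a-Cre-Rpl22HA mice, which carry an HA-tagged ribosomal protein Rpl22 in cells where the Camk2a promoter drives Cre, mainly excitatory neurons of the forebrain. The groups were AZD (mice with implanted glioma cells, given AZD8055, which blocks the ATP site of the mTOR kinase), tumor (glioma cells, no AZD8055) and control (no tumor), and the tag is shared by all of them. Each condition had 3 IP libraries, made from polysomal RNA pulled down through the tag, and 3 input libraries of total RNA, 18 in all. Nothing in the labels ties each number to its own mouse, so p-values measure only how far libraries of a group spread, which may be technical.

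Nonmuscle myosin II moves actin filaments and gives cells their contractile force, and the spectrin lattice lies beneath the membrane of axons and dendrites. In dendritic spines, actin and the proteins that bind it set the shape of the synapse. The mTOR kinase promotes translation, above all of mRNAs that begin with a C followed by a run of pyrimidines (TOP mRNAs).

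Since AZD8055 acts through mTOR, the bases around the annotated transcription starts were read for that pattern. All 10 genes had at least 1 start in the set of RefSeq starts that was read (GRCm38.p6), 14 starts in all. First and second starts are counted within that set, which may not hold every start. The annotated span of Dst begins at position 33907888 of chromosome 1, before its first start in the set at 34011595. A C at the start followed by at least 4 bases C or T stood at 2 of the 14 starts, those of Myh14 and the second start of Dst, against 2.51% of 32851 starts of all genes. Shown are the 3 myosin II heavy chains, which differ here although they are close relatives, the second start of Dst, and the first start of Ppp1r9a, the gene with the highest tumor ratio. Each line gives 15 bases before and 15 from the start on, 5′ to 3′ on the gene's strand, with capitals for the run of C and T that begins at the start. The positions are chr15:77842161-77842190 (minus strand) for Myh9, chr11:68691900-68691929 (plus) for Myh10, chr7:44670829-44670858 (minus) for Myh14, chr1:34160245-34160274 (plus) for Dst and chr6:4902960-4902989 (plus) for Ppp1r9a.
Myh9: gtagacccgccctccTCTTggaagggcggg
Myh10: atgagcatcattccaggtgggtggagggag
Myh14: ctgcaggccccgcctCCTTTTCTgtccagg
Dst: aaagccctgcccctcCTTTTagactgcctt
Ppp1r9a: ctctccctctcctgggatttcgctgctggg
Myh14 began with an 8-base run, Dst with a 5-base run and Myh9 with a 4-base run that opens with T, while Myh10 and Ppp1r9a began with G and had no run.

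In the 250 bases before each start, the GC box GGGCGG (either strand) was found at 9 of the 14 starts, of 8 members, against 32.7% of all starts. TATAAA (either strand) was found for Limch1 and Myh9 (12.4% of all starts), and the CArG box, the site of serum response factor, for no member (1.47% of all starts). These are matches of letters and show no binding. The genes lay on 10 different chromosomes, and their median annotated span was 139 kb, against 23.6 kb for 14865 genes measured here with a span.

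Total counts lay between 13561511 and 31052149 in AZD IP, 14735054 and 19742504 in AZD input, 16673120 and 31561226 in tumor IP, 17853365 and 23448015 in tumor input, 23097718 and 34178417 in control IP, and 15300374 and 17839717 in control input. Library names fall into sets: PD028 holds all AZD libraries, PD015 the tumor and control IP, and PD013 the tumor and control input. AZD IP against AZD input thus lies within 1 set, whereas in AZD against tumor or control, and in IP against input within tumor or control, the set and the group cannot be told apart. Of 14 excitatory neuron markers, 14 were higher in AZD IP than in AZD input, 0 in tumor IP than in tumor input and 9 in control IP than in control input (edgeR's quasi-likelihood test, adjusted p under 0.05). In tumor 1 of them was higher at an unadjusted p under 0.05 and 1 by DESeq2, and with the replicate number as a block 10 were higher and 1 lower. The median ratio of these markers in single pairs was 1.1 to 1.57 on the log2 scale in AZD, 0.21 to 0.53 in tumor and 0.25 to 0.50 in control. Marker lists of other cells were lower in AZD IP than in AZD input, with the 8 astrocyte markers at pair medians of -2.52 to -2.03.

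Levels are given as CPM (counts scaled to library size by TMM), and IP over input as the log2 of the CPM ratio of the libraries with the same number. CPM is not corrected for length, so levels are compared within a gene only. In bulk RNA, fewer cells of a type and less RNA per cell cannot be told apart. In tumor all 30 ratios (10 genes in 3 pairs) were above 0, and the members' means ran over 1.00 to 2.01, ranks 12 to 43 among 10327 genes with a mean of at least 10 CPM. Of these 10327 genes, 34.1% had all 3 tumor pairs above 0. The median of the members' means was -0.17 in AZD, 1.33 in tumor and -0.14 in control, against 0.13, 0.02 and 0.06 for all these genes. The tumor median of the members was 1.11 in pair 1, 1.52 in pair 2 and 1.43 in pair 3, above the all-gene median in each pair.

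**Figure D1:**
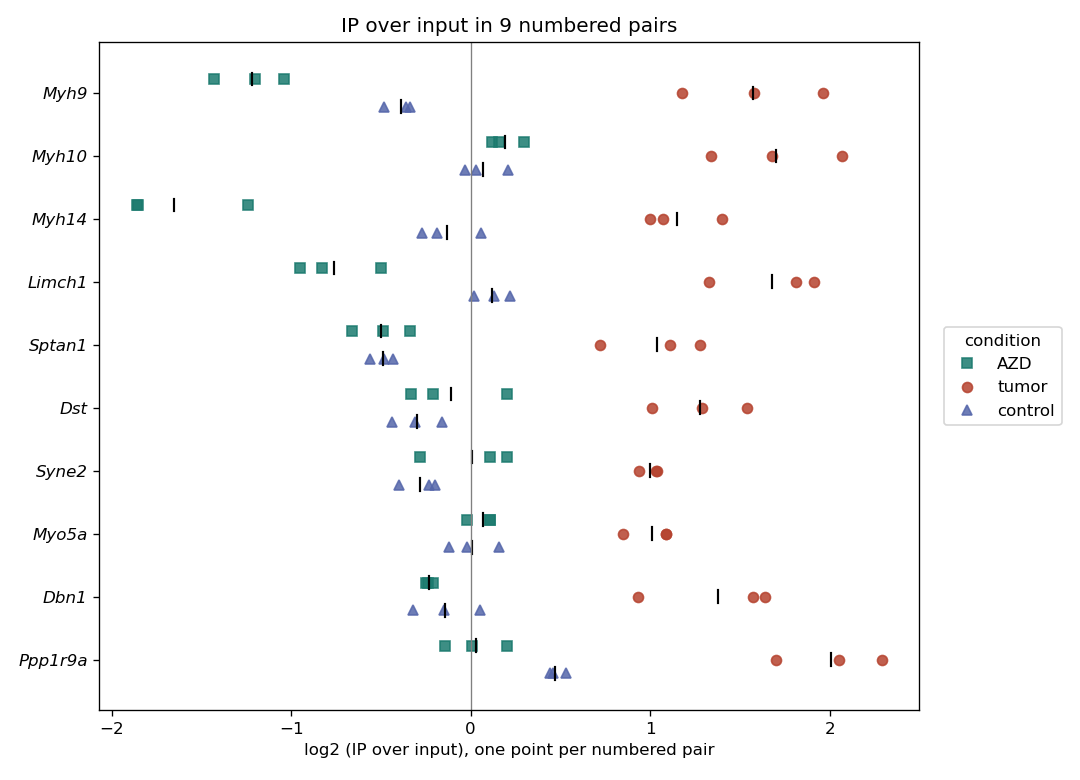
Log2 ratio of IP over input (x axis) for each of the 10 genes (rows) in each numbered pair of libraries; squares are AZD, circles tumor and triangles control pairs, and ticks are means of 3 pairs. All 30 tumor points lie to the right of 0 (0.72 to 2.29), while AZD points run over -1.86 to 0.30 and control points over -0.56 to 0.53. Of 10327 genes with a mean of at least 10 CPM, 34.1% had all 3 tumor pairs above 0.

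Myh9 encodes the heavy chain of nonmuscle myosin IIA, the form found in many dividing and migrating cells. It had 68.1, 51.9 and 55.7 CPM in AZD IP libraries 1, 2 and 3, against 156, 140 and 115 CPM in AZD input. In tumor it had 445, 512 and 486 CPM in IP, against 196, 131 and 163 CPM in input. In control it had 76.0, 68.5 and 72.1 CPM in IP, against 97.8, 95.2 and 91.3 CPM in input. The IP was the lower fraction in every AZD and control pair and the higher one in every tumor pair, with no overlap between the fractions in any condition. Its tumor IP mean was 6.66 times its control IP mean, the widest such gap of the members, and its tumor input mean 1.72 times that of control input. The log2 fold of AZD IP over AZD input was -1.21 ± 0.14 (SE; adjusted p = 0.000206, edgeR's quasi-likelihood test). In control the fold was -0.41 ± 0.08 (adjusted p = 0.00149, same test).

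Myh10 encodes myosin IIB, the main nonmuscle myosin II of neurons. It had 271, 295 and 278 CPM in AZD IP, against 249, 239 and 249 CPM in AZD input. In tumor it had 445, 1065 and 953 CPM in IP, against 176, 253 and 298 CPM in input. In control it had 382, 342 and 345 CPM in IP, against 331, 349 and 338 CPM in input. The AZD fractions lay close together without overlapping, the control fractions overlapped, and tumor IP library 1 lay far below the other tumor IP libraries. The log2 fold in AZD was 0.22 ± 0.09 and did not pass (adjusted p = 0.0522), but with the replicate number as a block it was 0.22 with an adjusted p of 0.0373 (edgeR's quasi-likelihood test). In control it was 0.06 ± 0.08 (adjusted p = 0.608, same test).

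Myh14 encodes myosin IIC and had the fewest reads of these genes. It had 5.24, 10.7 and 10.6 CPM in AZD IP, against 19.3, 38.9 and 25.0 CPM in AZD input. In tumor it had 73.5, 72.6 and 88.2 CPM in IP, against 36.8, 27.5 and 41.9 CPM in input. In control it had 22.8, 25.9 and 28.0 CPM in IP, against 26.0, 31.3 and 26.8 CPM in input. Its AZD IP libraries lay below all other libraries and its tumor IP libraries above all others, and only the control fractions overlapped. The log2 fold of AZD IP over AZD input was -1.59 ± 0.32 (adjusted p = 0.00259, edgeR's quasi-likelihood test), the lowest of the 10 genes.

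Limch1 encodes a protein that binds and activates nonmuscle myosin IIA in cultured human cells. It had 99.2, 74.9 and 97.5 CPM in AZD IP, against 176, 145 and 138 CPM in AZD input. In tumor it had 418, 679 and 576 CPM in IP, against 166, 181 and 164 CPM in input. In control it had 165, 191 and 209 CPM in IP, against 163, 175 and 179 CPM in input. Input means lay close together, at 153 ± 20.1 CPM in AZD, 170 ± 9.28 in tumor and 173 ± 8.18 in control (SD, n = 3 each), while AZD IP was below and tumor IP above every other library. Its fold in AZD was -0.74 ± 0.14 (adjusted p = 0.00193) and in control 0.11 ± 0.09 (adjusted p = 0.379) on the log2 scale, by edgeR's quasi-likelihood test.

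**Figure D2:**
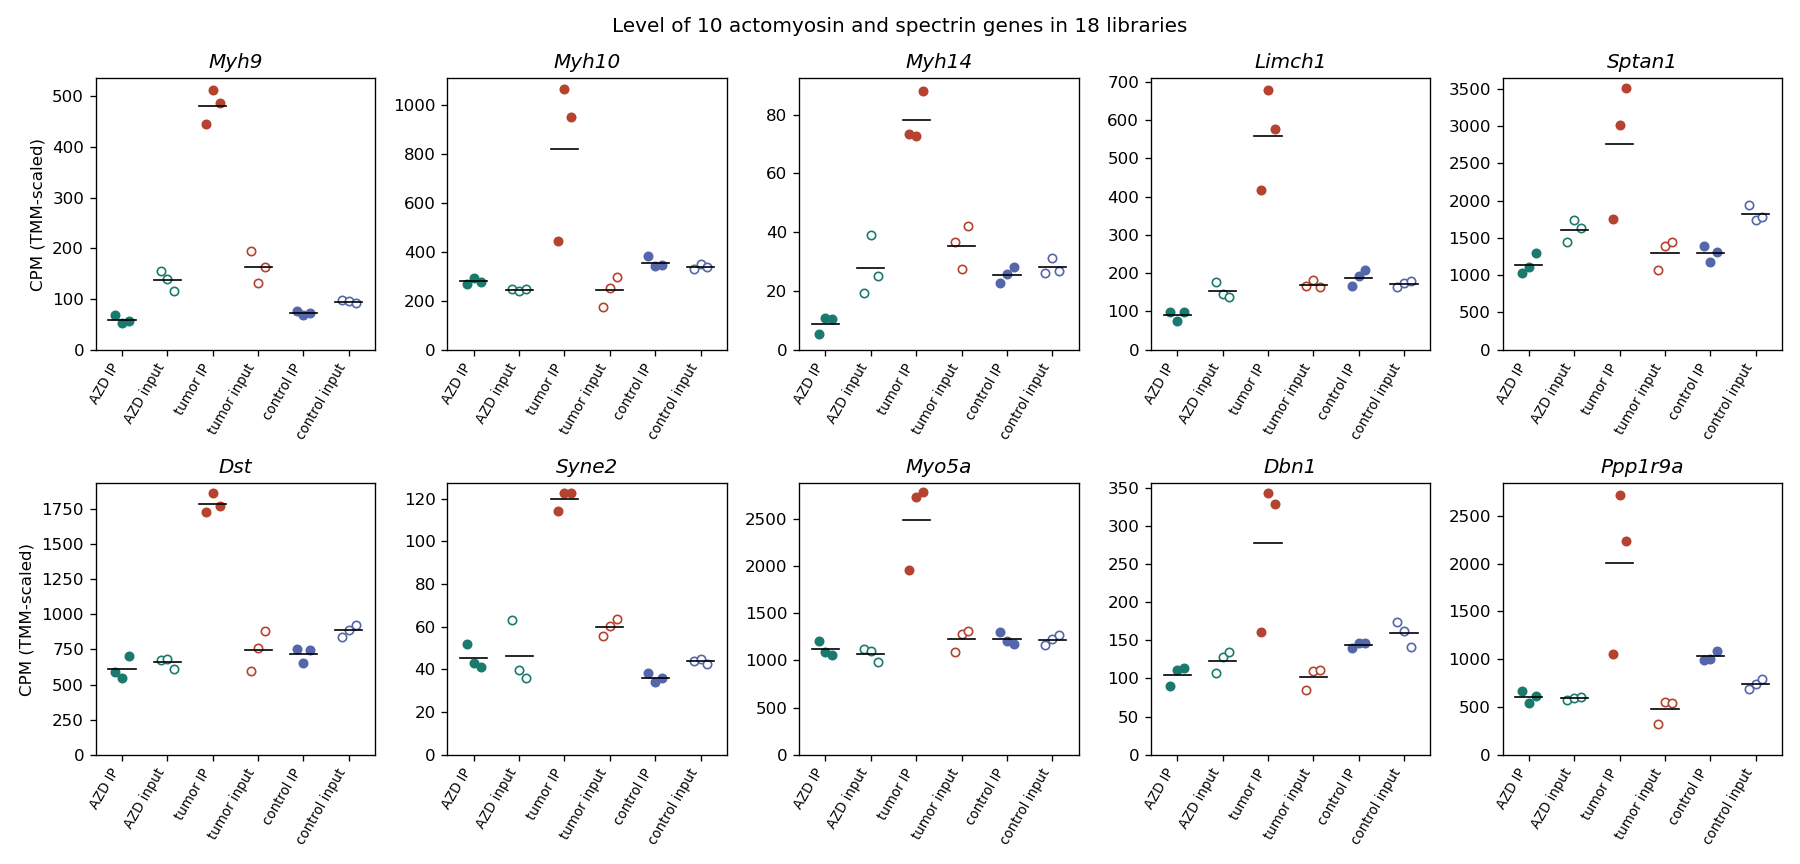
TMM-scaled CPM (y axis, from 0) of each gene in the 18 libraries, by group (x axis, AZD, tumor and control, IP as filled and input as open circles); bars are means of 3 libraries. Tumor IP has the highest mean in all 10 panels, and in 7 of them all 3 tumor IP libraries lie above the other 15.

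Sptan1 encodes the alpha chain of the spectrin found in neurons and other cells that are not erythrocytes. It had 1023, 1105 and 1292 CPM in AZD IP, against 1440, 1742 and 1636 CPM in AZD input. In tumor it had 1753, 3011 and 3516 CPM in IP, against 1068, 1394 and 1448 CPM in input. In control it had 1396, 1176 and 1315 CPM in IP, against 1946, 1735 and 1774 CPM in input. The fractions were apart in all conditions, with IP the lower one in AZD and control. Tumor IP library 1 lay below the highest control input library, so the tumor IP group did not clear all others. The log2 fold was -0.47 ± 0.13 in AZD (adjusted p = 0.0107) and -0.50 ± 0.09 in control (adjusted p = 0.00141), by edgeR's quasi-likelihood test. In AZD the call was lost without IP library 2 or without input library 2 (adjusted p up to 0.0635). With all 6 libraries and the replicate number as a block, the AZD fold was -0.47 with an adjusted p of 0.000938 (same test).

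Dst, which encodes dystonin, a plakin that links actin to microtubules and intermediate filaments, lay at 586, 547 and 704 CPM in AZD IP, against 678, 685 and 611 CPM in AZD input. In tumor the values were 1730, 1868 and 1772 CPM in IP, against 594, 762 and 879 CPM in input, and in control 754, 655 and 745 CPM in IP, against 841, 889 and 927 CPM in input. The AZD fractions overlapped, while the tumor IP libraries stood well above the other 15 and close to each other. Its control fold of -0.32 ± 0.09 on the log2 scale passed (adjusted p = 0.0143) and its AZD fold of -0.08 ± 0.12 did not (adjusted p = 0.569, edgeR's quasi-likelihood test).

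Syne2 encodes nesprin-2, which anchors the nucleus to the cytoskeleton. It lay at 52.0, 43.0 and 41.1 CPM in AZD IP, against 63.2, 39.7 and 35.8 CPM in AZD input. The tumor IP values of 115, 123 and 123 CPM, against 55.6, 60.2 and 63.8 CPM in tumor input, lay close together. In control it lay at 38.5, 33.9 and 36.2 CPM in IP, against 44.1, 44.7 and 42.5 CPM in input, with IP the lower fraction in every pair. The control fold passed at -0.29 ± 0.08 (adjusted p = 0.016), and the AZD fold was -0.01 ± 0.21 (adjusted p = 0.956, edgeR's quasi-likelihood test).

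Myo5a encodes myosin Va, which carries cargo along actin into dendritic spines. It lay at 1205, 1090 and 1056 CPM in AZD IP, against 1117, 1104 and 977 CPM in AZD input. In tumor it lay at 1960, 2728 and 2785 CPM in IP, against 1085, 1277 and 1309 CPM in input, and in control at 1299, 1208 and 1172 CPM in IP, against 1161, 1223 and 1273 CPM in input. Outside tumor IP its 15 libraries ran over 977 to 1309 CPM, and both fractions overlapped in AZD and in control. Its log2 folds were 0.09 ± 0.10 in AZD (adjusted p = 0.481) and -0.01 ± 0.09 in control (adjusted p = 0.968), by edgeR's quasi-likelihood test.

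Dbn1 encodes drebrin, which binds actin filaments in dendritic spines. It lay at 89.6, 111 and 114 CPM in AZD IP, against 107, 128 and 135 CPM in AZD input. In tumor it lay at 161, 343 and 329 CPM in IP, against 84.5, 110 and 110 CPM in input, and in control at 140, 146 and 146 CPM in IP, against 174, 162 and 141 CPM in input. The IP was lower in every AZD pair by nearly the same ratio (-0.25, -0.21 and -0.24 on the log2 scale), although the libraries of both fractions overlapped. The AZD fold of -0.21 ± 0.13 did not pass (adjusted p = 0.186), but with the replicate number as a block it was -0.21 with an adjusted p of 0.0334 (edgeR's quasi-likelihood test).

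Ppp1r9a encodes neurabin-1, which holds protein phosphatase 1 at actin in neurons. It had 663, 540 and 613 CPM in AZD IP, against 576, 594 and 608 CPM in AZD input. In tumor it had 1052, 2722 and 2242 CPM in IP, against 325, 557 and 542 CPM in input. In control it had 996, 1005 and 1088 CPM in IP, against 692, 743 and 792 CPM in input. It was the member with the highest tumor ratio (2.01 ± 0.30, SD, n = 3 pairs) and, with Limch1, one of 2 members whose IP stood above input in every control pair. Tumor IP library 1 lay among the control IP libraries, and tumor IP libraries 2 and 3 lay well above them. The control fold was 0.46 ± 0.09 on the log2 scale (adjusted p = 0.00161), and the AZD fold 0.05 ± 0.10 (adjusted p = 0.67, edgeR's quasi-likelihood test).

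In AZD IP against AZD input, 4 of the 10 genes fell (Myh9, Myh14, Limch1 and Sptan1), 0 rose and 6 did not pass. Over all 15040 genes 32.5% were called lower and 29.0% higher, so the members' share of lower calls was near the background. By DESeq2, and at an unadjusted p under 0.05, 1 member was higher. With the replicate block 5 fell and 1 rose, against 35.7% and 33.2%. Scaling by plain library totals moved folds in this comparison by -0.28 on the log2 scale, and then 6 members and 6622 of all genes were lower, and 0 members and 2298 genes higher, against 4883 and 4362 genes with TMM. The 95% intervals (by the normal quantile, without adjustment over genes) of the 6 genes that did not pass lay between -0.45 and 0.39 on the log2 scale. In control IP against control input, Ppp1r9a rose and Myh9, Sptan1, Dst and Syne2 fell, against 17.7% of 14958 genes higher and 18.8% lower (2644 and 2817 genes, or 1698 and 3677 with plain totals). All 5 control calls were lost when the 18 libraries, tumor libraries included, were fitted at once. Those of Dst and Syne2 were lost without control IP library 2 or control input library 2 (adjusted p up to 0.0648 for Dst and 0.064 for Syne2). That of Syne2 was also lost without control IP library 3. Gain over control was probably in view when the genes were chosen, so the control calls are no independent support.

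**Figure D3:**
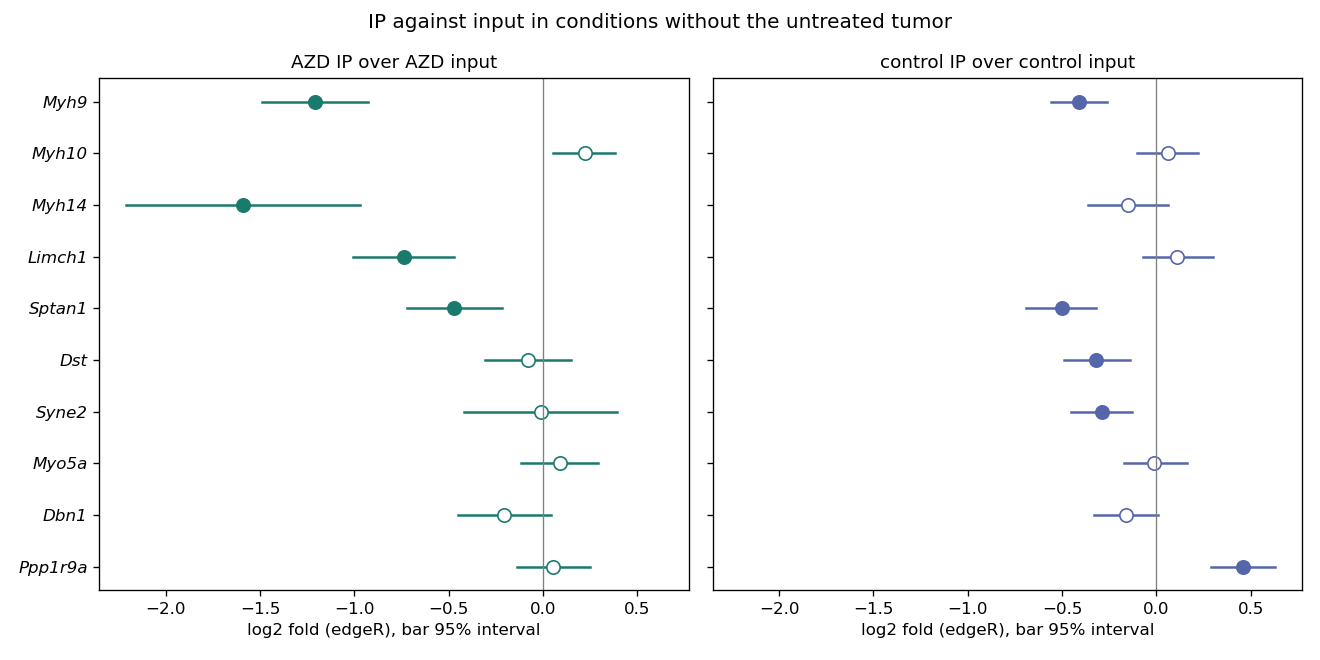
Log2 fold of IP over input (x axis) in edgeR for each gene (rows), AZD left and control right. Bars are 95% intervals by the normal quantile, and filled points passed at an adjusted p under 0.05. Myh9, Myh14, Limch1 and Sptan1 lie left of 0 in AZD, while in control only Ppp1r9a passed to the right of 0.

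All tests of AZD against control use control values, which were probably in view when the genes were chosen. The change of IP over input between AZD and control was tested in a fit of all 18 libraries, and the library sets cannot be told apart from the conditions in it. It was lower in AZD for Myh9 (-0.84 ± 0.20, adjusted p = 0.00462), Myh14 (-1.47 ± 0.35, adjusted p = 0.00459) and Limch1 (-0.88 ± 0.22, adjusted p = 0.00622), on the log2 scale by edgeR's quasi-likelihood test. The other 7 did not pass, against 19.3% of 16016 genes lower and 11.7% higher (3086 and 1867 genes, or 3708 and 1044 with plain totals, a shift of -0.15). With the replicate block Ppp1r9a was lower too, at -0.45 (adjusted p = 0.0136, same test), where 26.3% of genes were lower and 21.1% higher. For Sptan1, whose ratio was -0.50 ± 0.16 in AZD and -0.49 ± 0.06 in control, the difference was -0.01 with a 95% interval of -0.54 to 0.53.

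Within the fractions, AZD IP against control IP was lower for Myh14 (-1.49 ± 0.21), Limch1 (-1.06 ± 0.18) and Ppp1r9a (-0.77 ± 0.26) and higher for Syne2 (0.32 ± 0.10), against 17.4% of 15734 genes lower and 16.0% higher. Their adjusted p-values were 0.000501, 0.00129, 0.0455 and 0.0329 by edgeR's quasi-likelihood test. The call of Ppp1r9a was lost whichever AZD or control IP library was left out (adjusted p 0.0724 to 0.139), and that of Syne2 without AZD IP library 1 or 2 or control IP library 2 or 3 (adjusted p up to 0.126). In AZD input against control input Myh9 rose (0.55 ± 0.16, adjusted p = 0.02) and Myh10 (-0.45 ± 0.16, adjusted p = 0.0451) and Dst (-0.41 ± 0.14, adjusted p = 0.0396) fell, against 20.7% of 15511 genes higher and 16.0% lower. With plain totals 3753 of these genes were higher and 1916 lower, against 3214 and 2489 with TMM. Both lower calls were lost whichever AZD or control input library was left out, and that of Myh9 without AZD input library 1 or 2 or control input library 2 or 3 (adjusted p up to 0.079, log2 fold 0.43).

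In the tumor libraries, which chose the genes, tumor IP means were 2.00 to 4.23 times those of tumor input, with Syne2 lowest and Ppp1r9a highest. All 10 had fractions that did not overlap, where 12.1% of 15245 genes did so in that direction. Against control IP the tumor IP means were 1.93 to 6.66 times as high, and 9 of 10 did not overlap, against 30.6% of 15734 genes. In input the picture was mixed, with tumor means 0.638 to 1.72 times those of control. Myh9 and Syne2 had tumor input above control input without overlap, Myh10, Sptan1, Dbn1 and Ppp1r9a below it, and Myh14, Limch1, Dst and Myo5a overlapped (29.8% of 15511 genes lay below it without overlap and 30.1% above). AZD IP means were 0.113 (Myh14) to 0.448 (Myo5a) times those of tumor IP. For 7 genes all 3 tumor IP libraries stood above the other 15, as did 1.42% of 10327 genes, and the exceptions Sptan1, Dbn1 and Ppp1r9a each had tumor IP library 1 as the low one.

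Levels of cell markers also differed between the groups. The summed CPM of 8 glioma lineage and precursor markers was 501 to 691 in AZD IP, 2820 to 4050 in AZD input, 4794 to 5207 in tumor IP, 5992 to 6760 in tumor input, 410 to 544 in control IP and 538 to 610 in control input, and no marker was at 0 in a group. That list had pair medians of IP over input of -0.50 to -0.35 in tumor and -0.39 to -0.19 in control. The summed CPM of the 14 excitatory neuron markers was 4619 to 5394 in AZD IP, 2149 to 2583 in tumor IP and 4104 to 4941 in control IP. No marker list had a tumor pair median above 0.53, and the part of any cell type in the members' tumor ratios was not tested. The astrocyte, endothelial, microglia and glioma markers were lower in the AZD IP beside Myh9, Myh14, Limch1 and Sptan1, and the part of these cells in that result was not tested.

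Other genes of the same machinery were taken from 11 lists of 183 genes, members left out, of which 182 were in the table. In tumor IP against tumor input 5 of 170 tested rose and 3 fell, against 2.11% of all genes higher and 2.98% lower (322 and 454 genes, or 276 and 631 with plain totals). The genes that rose were Sptbn1, the beta partner of Sptan1 in the spectrin tetramer (1.45 ± 0.30, adjusted p = 0.0438), Mprip, which brings myosin phosphatase to actin (0.91 ± 0.10, adjusted p = 0.00555), Plec, the plakin plectin (0.73 ± 0.13, adjusted p = 0.0269), Pls3, the actin bundler plastin 3 (0.64 ± 0.14, adjusted p = 0.0454), and Actr2, a subunit of the Arp2/3 nucleator (0.85 ± 0.17, adjusted p = 0.0408), by edgeR's quasi-likelihood test on the log2 scale. The actin crosslinker Flna (-1.14 ± 0.15, adjusted p = 0.00961), Myo19, a myosin of mitochondria (-1.25 ± 0.18, adjusted p = 0.0145), and the formin Fmn2 (-0.72 ± 0.13, adjusted p = 0.0247) fell (same test). Without tumor IP library 2 the counts were 1 and 0. With the replicate block 46 rose and 23 fell, against 17.6% of all genes higher and 18.1% lower.

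Close relatives of the members differed among themselves in tumor. The beta spectrin gene Sptbn1 had a tumor ratio of 1.41 ± 0.21, and Macf1, the plakin most like Dst, 0.96 ± 0.04 (log2, SD, n = 3 pairs). Syne1, the paralog of Syne2, stood at 0.17 ± 0.15, Ppp1r9b (spinophilin, the paralog of Ppp1r9a) at 0.13 ± 0.07, Dbnl, a relative of Dbn1, at 0.16 ± 0.04, and Myo5b, the paralog of Myo5a, at 0.26 ± 0.31. The smooth muscle myosin gene Myh11 was at -2.41 ± 0.49 in AZD, 0.03 ± 0.48 in tumor and -1.80 ± 0.33 in control, and beta-actin (Actb) at -0.10 ± 0.07, -0.26 ± 0.13 and 0.07 ± 0.10. A high tumor ratio was thus held by some relatives and not by others, and 7 of 176 list genes (3.98%) had a mean above 1.00, against 2.88% of all 16016 genes.

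The difference of IP over input between tumor and control passed for 0 of 176 list genes in edgeR's quasi-likelihood test (15 higher and 3 lower at an unadjusted p under 0.05, and 6 higher by DESeq2), where 0.05% of all 16016 genes were higher and 0.0187% lower. The lists were chosen with earlier results of these data known, so counts of list genes are no independent support. With the replicate block, which the pairing of the libraries allows, 11 list genes were higher and 0 lower, where 0.318% of all genes were higher and 0.0999% lower. They included the beta spectrin genes Sptbn1 (1.60 ± 0.14, adjusted p = 1.5e-06), Sptb (1.24 ± 0.16, adjusted p = 9.29e-05) and Sptbn4 (0.79 ± 0.11, adjusted p = 0.000359). Also higher were Macf1 (1.33 ± 0.13, adjusted p = 2.19e-06), Plec (0.87 ± 0.14), the spine alpha-actinin gene Actn2 (1.14 ± 0.14), Lmo7 (0.98 ± 0.13), Myh11 (1.84 ± 0.26), Mprip (0.67 ± 0.11) and Myo6 (0.79 ± 0.14), all on the log2 scale by edgeR's quasi-likelihood test.

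**Figure D4:**
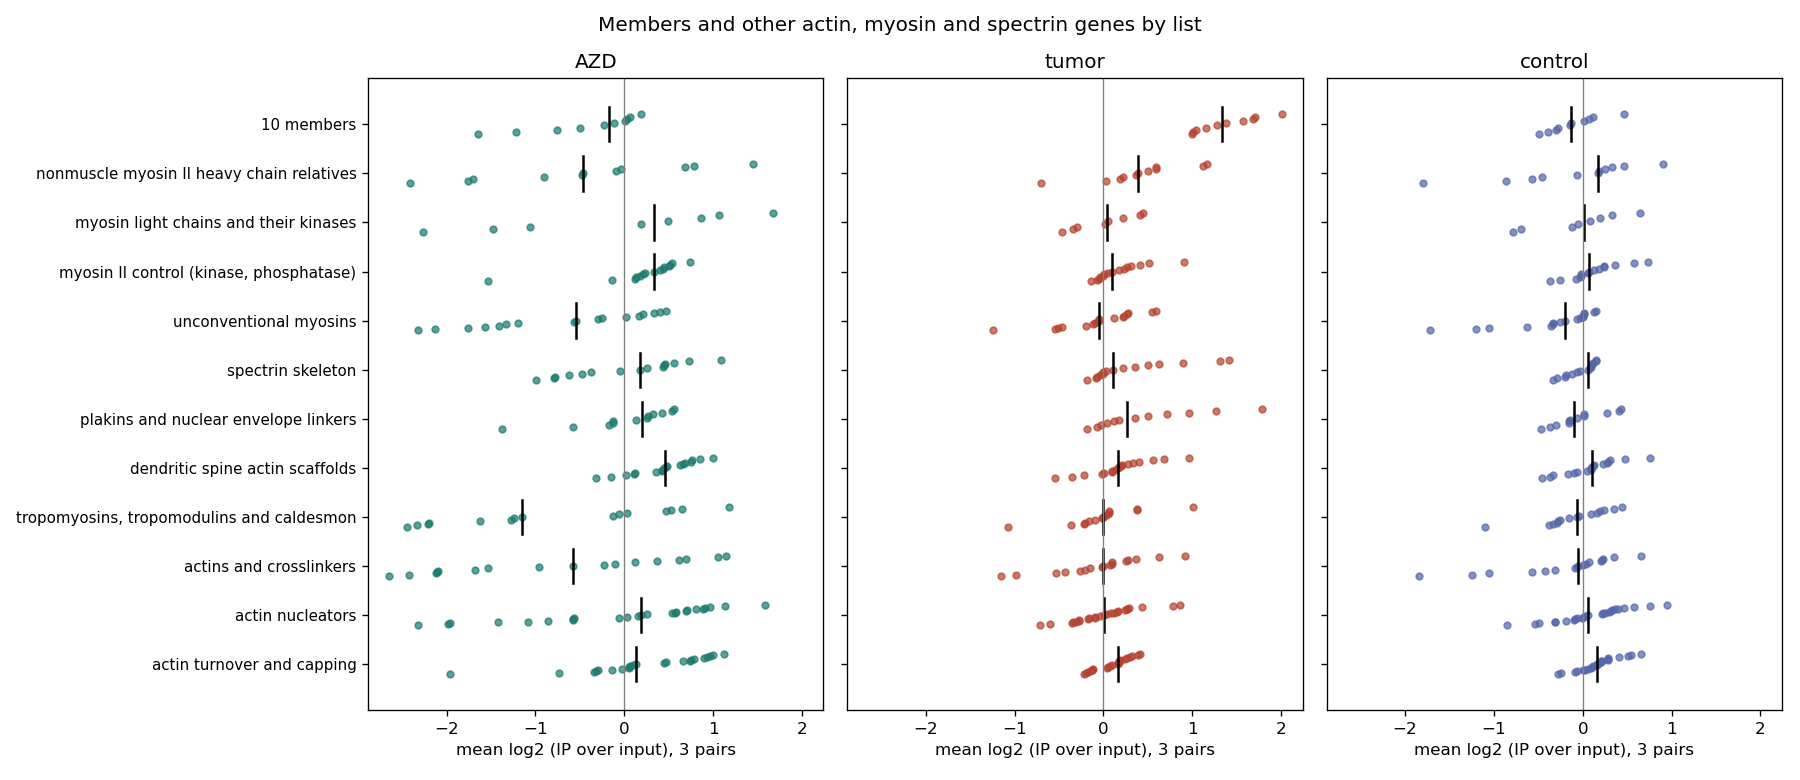
Mean log2 ratio of IP over input over 3 pairs (x axis) for each gene of the 10 members (top row) and of the 11 lists, in AZD, tumor and control from left to right; black bars are list medians. The members stand at 1.00 to 2.01 in tumor, where 7 of 176 list genes exceed 1.00, while in AZD and control they lie within the range of the other lists.

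In AZD IP against AZD input 68 of the 170 list genes rose and 47 fell, beside 29.0% and 32.5% of all genes, and 40 rose with plain totals. The lists parted: of 18 dendritic spine scaffold genes 12 rose and 0 fell (median fold 0.48 on the log2 scale, against -0.02 for all genes, and 0 fell by DESeq2 or at an unadjusted p under 0.05), whereas of 17 actins and crosslinkers 5 rose and 9 fell (median -0.56). With plain totals, which moved folds here by -0.28, 4 spine genes rose and 2 fell, with a median of 0.20. Beside them all 14 excitatory neuron markers rose, with a median fold of 1.37 (1.09 with plain totals, where 12 rose), and their part in the spine list's result was not tested. Among the list genes that rose with TMM were the spine kinase subunit Camk2b (0.79 ± 0.09, adjusted p = 0.000188), the postsynaptic scaffold Homer1 (1.01 ± 0.12, adjusted p = 0.000224) and the adducin Add2 (0.75 ± 0.12, adjusted p = 0.000792). Rock1, a kinase that activates myosin II (-1.51 ± 0.11, adjusted p = 3.73e-05), Myh11 (-2.45 ± 0.27, adjusted p = 0.000153) and Flna (-2.65 ± 0.16, adjusted p = 2.23e-05) fell, by edgeR's quasi-likelihood test. Dbn1 and Ppp1r9a, which work in spines, had AZD folds of -0.21 ± 0.13 and 0.05 ± 0.10, below the median of the spine list.

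The 8 genes whose ratios over the 9 pairs were most like the members' mean (Pearson's r, 9983 genes ranked) were Sptbn1 (0.996), Actn2 (0.989), Gprasp1 (0.984), Mprip (0.97), Sptb (0.969), Col11a1 (0.968), Paxbp1 (0.967) and Pprc1 (0.963). The 9 pairs share conditions and library sets, so r describes the pattern over conditions. Of the 8 genes, 4 were on the lists, which were chosen with earlier results of these data known. The share of list genes among all genes ranked was not computed, so this count is no independent support. The ratio of Gprasp1 was -0.23 ± 0.11 in AZD, 1.27 ± 0.18 in tumor and -0.05 ± 0.12 in control, close in level to the members. Col11a1 was below 0 throughout, at -2.67 ± 0.34 in AZD, -0.44 ± 0.14 in tumor and -2.01 ± 0.37 in control, so its likeness is in the order of the pairs and not in level.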

How the data were processed

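The authors deposited 1 table of raw counts for 23420 symbols in 18 libraries. The RNeasy Mini kit gave the RNA and the NEBNext Ultra Directional kit the libraries, per the labels' protocols. STAR, DESeq2 and mm10 stand in the submitters' processing notes. How reads were counted, on which annotation and with what use of strand is not given in the sources used here, so antisense partners cannot be told apart. RefSeq for GRCm38.p6, the source of coordinates and starts, held 21571 of the symbols.

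Counts were scaled by TMM, genes kept by filterByExpr (all 10 members passed in every fit) and tested by the quasi-likelihood F test of edgeR 4.0.16 in R 4.3.3, with p-values adjusted over all genes (Benjamini-Hochberg) and a threshold of 0.05. An SE is the log2 fold over the root of F. IP and input were compared in fits of 6 libraries, conditions within a fraction in fits of 9, and changes of the ratio in a fit of 18. Ratios of pairs used a prior count of 2. No test of a member is reported where tumor libraries enter the contrast. The fits of 9 and 18 libraries did hold the tumor libraries, so the spread of tumor libraries enters the SEs and p-values of those fits. Same-number IP and input libraries of a condition deviated together (r 0.227 to 0.47 in AZD, 0.487 to 0.741 in tumor and 0.181 to 0.244 in control, over 16016 genes), and each matched its own number best, so the numbers were taken to pair them. This pairing entered the pair ratios and the fits with the replicate block. The main tests compared group means and did not use it, so their p-values and calls leave the pairing out. Across conditions the lowest same-number r of each pair of groups was -0.096 to 0.0408, and the numbers were not taken to pair, although tumor and control IP also matched their own numbers best (r 0.0408 to 0.0862). Alternatives were the replicate number as a block, DESeq2 1.42.0, other scalings and filters, a fit of all libraries and leaving out each library in turn. Tests were tested on simulated data.

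The named genes are the members, fixed relatives, the 8 genes most alike and, per list, up to 2 higher and 2 lower with the smallest adjusted p. Members and lists were chosen with earlier results of these data known. Tables and figures were made in Python 3.11.15 with matplotlib 3.10.9. A result on a gene of these lists is not reported here.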

Additional observations from a re-analysis of the deposited data

Results flagged for a closer look

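The IP over input ratio of 3 genes differed between AZD and control by the test of the difference itself (edgeR's quasi-likelihood test): it was lower in AZD by a log2 difference of -0.84 for Myh9, -1.47 for Myh14 and -0.88 for Limch1. Of all 16016 genes 19.3% were lower there and 11.7% higher, and the library sets and the conditions cannot be told apart. For Limch1 every AZD pair lay below 0 and every control pair above it, with a difference of pair means of -0.88.

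In some genes, these 3 among them, every pair of one condition moved one way and every pair of the other the opposite way, and these differences were not tested because tumor pairs chose the genes. AZD pairs were below 0 and tumor pairs above it for Myh9 (tumor minus AZD 2.80 on the log2 scale), Myh14 (2.80), Limch1 (2.44), Dbn1 (1.61) and Sptan1 (1.53). Tumor pairs were above 0 and control pairs below it for Myh9 (tumor minus control 1.97), Dst (1.59), Sptan1 (1.53) and Syne2 (1.28). Of 10327 genes with a mean of at least 10 CPM, 34.0% had all AZD pairs below 0 and 34.1% all tumor pairs above 0. All control pairs were below 0 for 30.1% of these genes and above 0 for 42.3%. Dixon's test for a single outlying library was not run on groups of 3.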

How the results depend on the processing

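Only values that changed a call, a direction or a count by over 1.5 times are given, and no cause of a change was tested. Genes called in tumor IP against tumor input (776) numbered 1728 by DESeq2, 451 at a mean of at least 5 CPM, 5433 with the replicate block, 2225 with all 18 libraries fitted and 120 to 653 with 1 library left out. List genes higher there (5) numbered 13, 2, 46, 18 and 1 to 6 in that order, and those lower (3) numbered 7 by DESeq2, 6 with plain library totals, 23 with the block, 8 with all libraries and 0 to 6 with 1 left out. The difference of ratios between tumor and control (11 genes) gave 40 by DESeq2, 17 with plain totals, 67 with the block and 5 to 20 with 1 library left out, and that between AZD and control (4953) 7599 with the block. With 1 library left out, AZD IP against control IP gave 3429 to 4735 genes and AZD input against control input 3737 to 4965.

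Of the members, those higher in AZD IP against AZD input (0) numbered 1 by DESeq2, DESeq2 size factors and the block, and 0 to 1 with 1 library left out, and those lower (4) 3 to 4. With plain totals 40 list genes were higher there, against 68. In control IP against control input the counts were 0 and 0 with all libraries fitted, and 2 to 5 lower with 1 left out. In AZD IP against control IP 0 were higher without a filter or with all libraries, and 0 to 1 higher and 2 to 3 lower with 1 left out. In AZD input against control input plain totals left 0 lower, and 5 CPM or all libraries 1.

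Values near 0 changed sign. In AZD IP over input, plain totals gave Myh10 -0.06 (its pair ratio too), Myo5a -0.19 and Ppp1r9a -0.22, the 5 CPM filter Myo5a -0.02 and Ppp1r9a -0.06, and Syne2 was 0.01 by DESeq2 and its size factors, 0.02 without a filter and 0.03 with the block. In control, Myh10 was -0.04 with plain totals and Myo5a 0.0 to 0.01 by DESeq2, its size factors, no filter and all libraries. In AZD over control input, Myh14 was 0.08 with plain totals and 0.0 at 5 CPM. In AZD minus control, plain totals gave Myh10 -0.03 and Myo5a -0.09, and Sptan1 was 0.04 by DESeq2 and its size factors and 0.0 without a filter. With 1 library left out, the ranges that crossed 0 in AZD IP over input were -0.18 to 0.0 for Dst, -0.14 to 0.30 for Syne2 and -0.14 to 0.04 for Actb, in control -0.05 to 0.03 for Myo5a, in AZD over control input -0.32 to 0.20 for Myh14 and -0.20 to 0.26 for Syne2, and in AZD minus control -0.08 to 0.10 for Sptan1 and -0.18 to 0.05 for Dbn1. The replicate block changed no call of a member other than Myh10 and Dbn1 in AZD and Ppp1r9a in AZD minus control. In AZD against control within IP or within input, the block joined equal numbers across conditions. These were not taken to pair, so the block is no check of those calls.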

Other observations

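Myosin regulators and actin nucleators outside the 10 genes parted widely in AZD IP against AZD input. The nucleation-promoting factor Wasf1 (1.62 ± 0.10, adjusted p = 2.4e-05), the myosin kinase gene Mylk3 (1.76 ± 0.20, adjusted p = 0.000194), Tagln3, the calponin family member of neurons (1.23 ± 0.16, adjusted p = 0.000295), and the actin regulator Coro1a (1.14 ± 0.12, adjusted p = 0.000154) rose on the log2 scale, by edgeR's quasi-likelihood test. Caldesmon (Cald1, -2.32 ± 0.11, adjusted p = 1.62e-05), gelsolin (Gsn, -1.94 ± 0.10, adjusted p = 1.69e-05) and myosin VI (Myo6, -2.08 ± 0.16, adjusted p = 4.17e-05) fell (same test). Myo6 had a ratio of -2.13 ± 0.36 in AZD, 0.59 ± 0.15 in tumor and -0.20 ± 0.07 in control (SD, n = 3 pairs). Of 25 actin nucleator genes 11 rose and 8 fell in AZD, and of 23 genes of actin turnover and capping 11 rose and 3 fell, beside 29.0% of all genes higher and 32.5% lower. With plain library totals 10 nucleator genes rose and 9 fell, and 9 genes of turnover and capping rose and 6 fell. Of 15 tropomyosin, tropomodulin and caldesmon genes tested there 4 rose and 7 fell, with a median log2 fold of -0.84.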
